A study of Mus musculus with 4 samples.

Results

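The miRNAs described here are mmu-miR-362-5p, mmu-miR-362-3p and mmu-miR-532-5p, which arise from the cluster of miRNA genes within the chloride transporter gene Clcn5 on the X chromosome. They were taken by name from the array files, with all of their probes, and are 3 of the 650 miRNA names on the array. They were chosen by their measured signals, because their calls between knockout and wild type turned with the scaling of the arrays, so their differences between the genotypes are given as a description, and the p-values attached to them support nothing further. Lats2 encodes a kinase of the Hippo pathway, and the series compared miRNAs of mouse embryonic fibroblasts (MEFs) with and without it. The knockout (KO) arrays held total RNA of Lats2-/- MEFs of clone #112-C, replicate 1 at PDL 70 and replicate 2 at PDL 96 (PDL was read as population doubling level, the age of the culture). The wild-type (WT) arrays held total RNA of Lats2+/+ MEFs of clone #112-K, replicate 1 at PDL 68 and replicate 2 at PDL 90. All 4 samples were untreated C57BL/6J cells, with 1 single-colour array each. Each genotype was represented by 1 clone, so genotype and clone cannot be told apart, and the spread within a group was that of 1 clone at 2 culture ages.

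A miRNA is cut from a hairpin precursor, and either arm of the hairpin, named 5p and 3p, can be loaded into the silencing complex. The bases 2 to 8 of the mature strand, its seed, pair with target mRNAs, so strands with a shared seed have overlapping targets. In mammals the Clcn5 cluster lies in an intron of the host gene and encodes several related hairpins, miR-188, miR-362, miR-500, miR-501 and miR-532 among them. In human cancer cells, miR-362-5p has been studied as a repressor of CYLD, a negative regulator of NF-kB signalling.

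In the RefSeq gene table (GRCm38.p6), the hairpins of 5 of these genes lay within the span of Clcn5 and on its strand, in a stretch of 10.8 kb. The table lists 2 start sites for Clcn5, of which 1 lay upstream of the cluster, at a distance of 70.9 kb. In the direction of transcription the order was Mir532, Mir188, Mir362, Mir501 and Mir500. On the mm9 build, the array files place the longest probe of miR-362-5p at chrX:6819119-6819135, that of miR-362-3p at chrX:6819152-6819170 and that of miR-532-5p at chrX:6825554-6825569, so miR-362 and miR-532-5p lay 6.4 kb apart. For 4 of 4 hairpins with probes for both arms, the files put the 5p arm at the lower position, as on the plus strand, whereas RefSeq puts these genes on the minus strand. All 30 probes of the cluster were 1 base longer than the spans given. The spans are therefore quoted to place the hairpins and not the single bases of an arm.

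The strands are printed here because the 2 arms of miR-362 differ in seed while 1 of them shares its seed with a neighbour. They are the RefSeq sequences (GRCm38.p6, minus strand of the X chromosome), 5′ to 3′, with the seed in capitals, and mmu-miR-532-5p is named only.
mmu-miR-362-5p: aAUCCUUGgaaccuaggugugaau
mmu-miR-500-5p: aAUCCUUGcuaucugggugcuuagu
mmu-miR-362-3p: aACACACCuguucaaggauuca
mmu-miR-500-3p: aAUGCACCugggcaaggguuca
The seed of miR-362-5p, AUCCUUG, was also that of miR-500-5p, and miR-362-3p (ACACACC) shared its seed with none of the 8 other strands of the cluster in the table. The array name mmu-miR-500 refers to the 3p arm, since its probes were complementary to miR-500-3p and to no other strand in the table. In the hairpin of Mir362 both measured arms are in capitals.
Mir362 hairpin: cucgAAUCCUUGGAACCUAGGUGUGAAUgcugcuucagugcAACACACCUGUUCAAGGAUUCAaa

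Each miRNA was read by a short ladder of probes that pair with the 3′ end of the strand and extend towards its 5′ end. The probes are printed 5′ to 3′, with the bases beyond the shortest probe of the same miRNA in capitals, because the signal depended on these bases. Each array carried 5 spots of each miR-362-5p probe and 10 spots of each of the other probes.
miR-362-5p, 15 bases: attcacacctaggtt
miR-362-5p, 16 bases: attcacacctaggttC
miR-362-5p, 17 bases: attcacacctaggttCC
miR-362-5p, 18 bases: attcacacctaggttCCA
miR-362-3p, 19 bases: tgaatccttgaacaggtgt
miR-362-3p, 20 bases: tgaatccttgaacaggtgtG
miR-532-5p, 16 bases: acggtcctacactcaa
miR-532-5p, 17 bases: acggtcctacactcaaG

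In every array the longest probe of each miRNA gave the highest signal. For miR-362-5p, the background-corrected signal on KO replicate 1 was -4.92 ± 2.28 scanner units with 15 bases, -4.49 ± 2.35 with 16 bases, 12.8 ± 1.69 with 17 bases and 22.5 ± 1.72 with 18 bases (mean ± SD over 4 or 5 spots). The step between 16 and 17 bases, where the second C is added, took the signal from below background to above it, and the same step was seen on the other 3 arrays. On WT replicate 1 the 16- and 17-base probes gave -4.21 ± 1.99 and 6.12 ± 2.48 units. For miR-532-5p, 1 further base raised the signal of KO replicate 1 from 3.76 ± 1.61 to 22.3 ± 3.35 units, and that of WT replicate 1 from 3.48 ± 1.75 to 17.4 ± 2.23 units (SD over 9 or 10 spots). For miR-362-3p, the 19-base probe gave 20.1 ± 2.48 and the 20-base probe 34.3 ± 3.64 units on KO replicate 1, and 9.58 ± 4.53 and 23.5 ± 6.23 units on WT replicate 2. Values below for these 3 miRNAs refer to the longest probe, which was also the brightest, unless another is named.

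**Figure D1:**
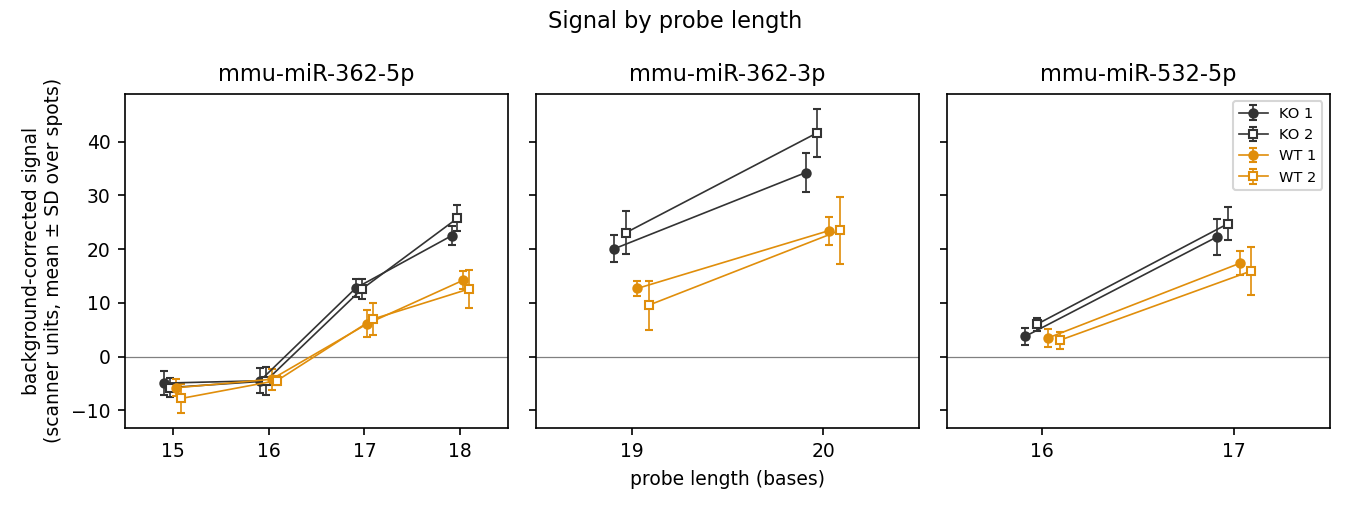
Background-corrected signal (scanner units, mean ± SD over the spots of 1 array, not scaled) against probe length in bases for the 3 miRNAs, with KO arrays in black and WT arrays in orange, filled circles for replicate 1 and open squares for replicate 2. The 15- and 16-base probes of miR-362-5p lie below 0 on all 4 arrays, and in each panel the longest probe is the brightest.

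The fibroblast label was checked first. Of 9 fibroblast miRNAs, 8 were well above background on all 4 arrays, miR-145 being the exception, and their summed scaled signal was 22694 to 23874 units in KO and 22459 to 27728 units in WT. Of 22 markers of epithelial, blood, muscle, neural, endothelial and liver cells, 1 was well above background on any array, the muscle miRNA miR-206. The muscle list summed to 34.5 to 37.7 units in KO and 35.8 to 36.9 units in WT. The neural list, none of it well above background, summed to 14.4 to 14.5 units in KO and 7.82 to 8.76 units in WT, and the endothelial list, likewise, to 4.93 to 6.61 and 2 units. Their part in the differences below was not tested. Between 24.2% and 24.8% of the names were well above background on the KO arrays and between 19.2% and 19.8% on the WT arrays, and no miRNA spot was saturated. The arrays measure no mRNA, so the loss of Lats2 was not checked.

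All 3 miRNAs were dim. Each array was divided by the 75th percentile of the 192 common probes, which are those that passed the background flag on every array (the scaling used unless stated). The dimmest probe that passed the flag then read log2 3.93 on KO replicate 1, 3.64 on KO replicate 2, 3.89 on WT replicate 1 and 3.95 on WT replicate 2. The 3 miRNAs lay between 0.49 and 1.60 above that limit on the KO arrays and between -0.14 and 0.76 on the WT arrays, on the log2 scale. On WT replicate 1 the dimmest passing probe was that of miR-362-5p itself, so the limit there is not independent of the 3 miRNAs. The depth of an array measurement is set by its spots, and the CV over the spots of the longest probe was 7.62% to 28.3% for miR-362-5p, 10.6% to 26.5% for miR-362-3p and 12.7% to 27.5% for miR-532-5p, with the highest CV of each on WT replicate 2.

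The 5p strand of miR-362 carried the widest gap between the genotypes. Its log2 signal was 4.43 and 4.55 on KO replicates 1 and 2 and 3.89 and 3.81 on WT replicates 1 and 2. Both KO arrays were above both WT arrays. The difference was 0.64 ± 0.078 (SE, n = 2 and 2; limma, 95% CI 0.40 to 0.88, adjusted p = 0.0093), or 1.56-fold. The probe was well above background on both KO arrays with 5 of 5 spots, on WT replicate 1 with 3 of 5 spots, and not on WT replicate 2, where 1 of 5 spots passed. This miRNA was therefore tested only because it passed in KO, where it was the higher, and a filter on all 4 arrays left it out. Before scaling, the spots read 19.9 to 28.0 units in KO and 8.78 to 17.8 units in WT and did not overlap, whereas after scaling the highest WT spot (19.8 units) passed the lowest KO spot (19.1 units).

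The 3p strand of the same hairpin was measured above background on all 4 arrays. Its log2 signal was 5.04 and 5.24 on KO replicates 1 and 2 and 4.61 and 4.71 on WT replicates 1 and 2. Again both KO arrays were the higher, with KO replicate 2 above KO replicate 1. The difference was 0.48 ± 0.10 (SE, n = 2 and 2; limma, 95% CI 0.17 to 0.79, adjusted p = 0.032), or 1.39-fold. The scaled spots overlapped between the genotypes, at 28.2 to 45.0 units over 20 KO spots and 12.4 to 35.6 units over 19 WT spots. The WT spread came mostly from replicate 2, with spots from 12.4 to 35.6 units against 19.99 to 29.2 units on replicate 1.

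For miR-532-5p, from the hairpin nearest the host gene's upstream start site, the gap was the narrowest. Its log2 signal was 4.42 and 4.49 on KO replicates 1 and 2 and 4.18 and 4.15 on WT replicates 1 and 2. The groups did not overlap. The difference was 0.29 ± 0.063 (SE, n = 2 and 2; limma, 95% CI 0.096 to 0.48, adjusted p = 0.033), or 1.22-fold. The scaled spots overlapped over much of their range, from 16.7 to 27.3 units in KO and from 10.4 to 22.7 units in WT. Propagating the spot SDs alone gave a technical SE of 0.083 for this difference, which is larger than the SE between arrays. For miR-362-5p the technical SE of 0.11 was also the larger, and for miR-362-3p it was 0.075.

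**Figure D2:**
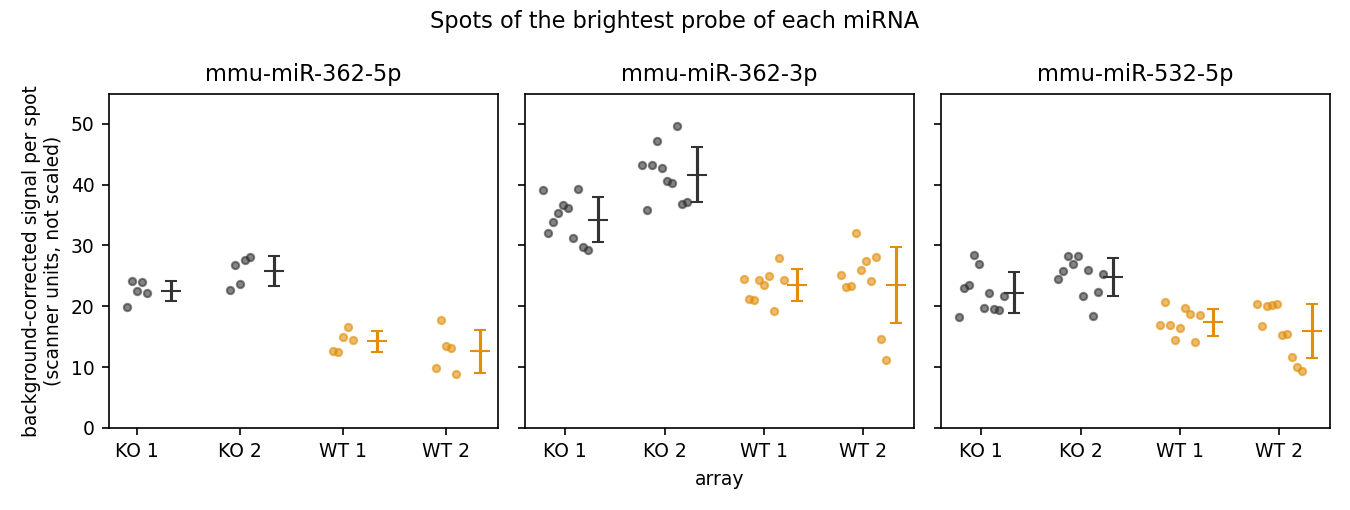
Background-corrected signal of each spot of the longest probe (scanner units, not scaled) on the 4 arrays for each miRNA, with mean ± SD over spots beside the points, KO in black and WT in orange. KO and WT spots of miR-362-5p do not overlap before scaling (lowest KO spot 19.9, highest WT spot 17.8 units), whereas those of miR-362-3p and miR-532-5p do.

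With this scaling, 3 of 3 miRNAs were called higher in KO at an adjusted p under 0.05. The 159 tested miRNAs were those that passed the background flag on both KO arrays, on both WT arrays or on all 4, and 43.4% of them were called higher in KO, while 60.4% had both KO arrays above both WT arrays. The median difference of the 159 was 0.31, so miR-532-5p lay 0.020 below that median, miR-362-3p 0.17 above it and miR-362-5p 0.33 above it on the log2 scale. Of the tested miRNAs, 49.1% had a lower difference than miR-532-5p, 57.9% a lower one than miR-362-3p and 61.6% a lower one than miR-362-5p. Among these 159, the 3 miRNAs thus stood in the middle of the distribution, and their calls moved with its zero line. That place depended on the filter. For the 115 miRNAs that passed the flag on all 4 arrays, the median difference was 0.17. Of those, 74.8% had a lower difference than miR-362-3p and 62.6% a lower one than miR-532-5p, and miR-362-5p was not among them. An exact permutation test of 2 arrays against 2 could reach no two-sided p below 0.333.

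With single arrays left out the differences kept their direction, at 0.58 to 0.70 for miR-362-5p, 0.38 to 0.58 for miR-362-3p and 0.25 to 0.33 for miR-532-5p. Each of the 3 lost its call in some or all of these fits, and the number called over all tested miRNAs also fell in each. Such a fit leaves 1 array in a group, so only the size of the differences is given here. With the lower and higher PDL as a block, the limma adjusted p was 0.038 for miR-362-5p, 0.043 for miR-362-3p and 0.088 for miR-532-5p. With that block, 52 of 159 tested miRNAs were called higher. The direction was the same in each of these fits, and a lone array was assumed to vary like the other group. All 4 arrays shared 1 slide and 1 scan, so neither could be used as a block.

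The scalings that divide each array by 1 number shift all miRNAs of an array together, so they move the zero of the comparison and also the spread between the arrays of a group. Without scaling, the log2 differences were 0.85 ± 0.12 for miR-362-5p, 0.69 ± 0.13 for miR-362-3p and 0.50 ± 0.10 for miR-532-5p (SE), and 3 of 3 were called, against 57.9% of tested miRNAs called higher. The scaling number of KO exceeded that of WT by 0.13 (log2) for the sum over the 192 probes, by 0.21 for their 75th percentile and by 0.61 for their median, and this amount is subtracted from every miRNA. With the sum, the differences were 0.72, 0.56 and 0.37 for miR-362-5p, miR-362-3p and miR-532-5p. Of these, 3 of 3 were called higher, beside 46.5% of all tested called higher. With the median the differences were 0.24 ± 0.092, 0.076 ± 0.15 and -0.11 ± 0.098 in the same order. In either direction 0 of 3 were called by limma (0 of 3 at an unadjusted p under 0.05). Of 159 tested miRNAs, 38 (23.9%) were called higher and 36 lower, and 91 had an unadjusted p under 0.05. The subtracted 0.61 lay between the unscaled difference of miR-532-5p and that of miR-362-3p, so the sign of miR-532-5p turned while both miR-362 strands kept theirs. Under the median, the arrays of miR-362-3p overlapped, with log2 values of 4.89 and 5.05 for KO against 4.75 and 5.04 for WT. Relative to the median of the tested miRNAs, which shifted from 0.52 without scaling to -0.093 with the median, each miRNA held the same place under all 4 of these scalings.

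**Figure D3:**
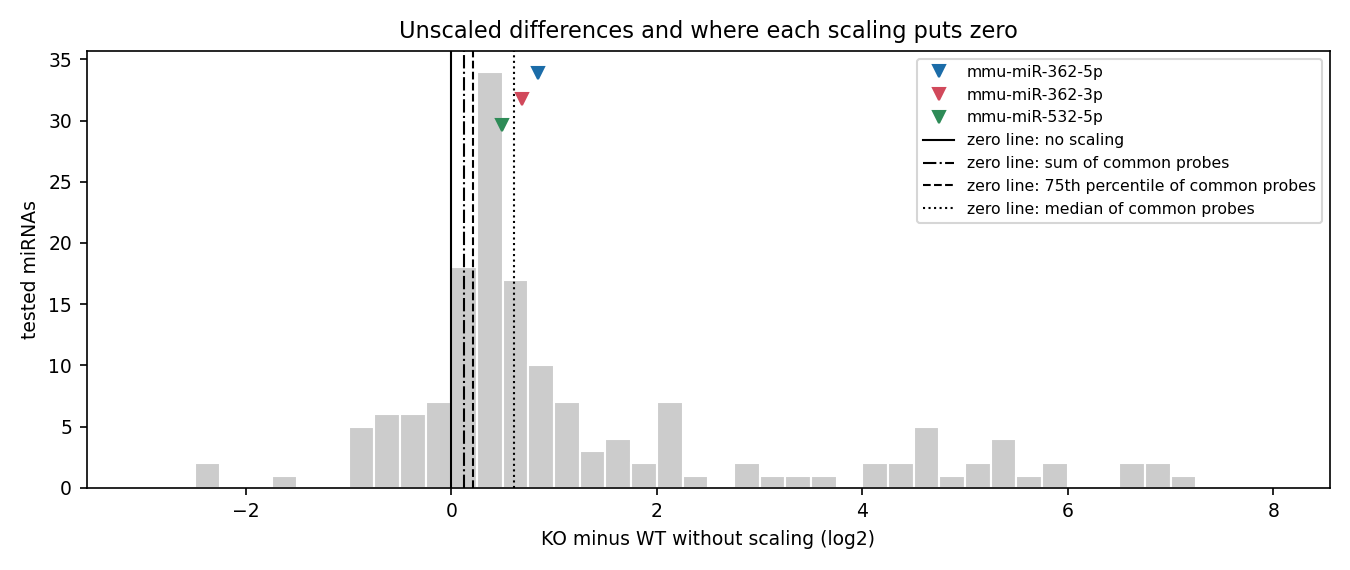
Histogram of the KO minus WT difference without scaling (log2) over the 159 tested miRNAs, with triangles at the 3 miRNAs and vertical lines where each scaling by a single number puts its zero (0, 0.13, 0.21 and 0.61). The line of the median of common probes falls between miR-532-5p at 0.50 and miR-362-3p at 0.69.

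Further methods change signals by level or rank. With cyclic loess over the 192 probes, the difference was 0.51 ± 0.086 for miR-362-5p (limma, adjusted p = 0.018). It was 0.27 ± 0.11 for miR-362-3p and 0.14 ± 0.075 for miR-532-5p. Of these, 1 of 3 was called higher, beside 37.7% of all tested called higher. Quantile normalization over all 1857 probes, most of them at background, turned the sign of all 3, to -0.13 ± 0.32, -0.30 ± 0.16 and -0.56 ± 0.15 (SE). By limma 0 of 3 were called in either direction, and 1 of 3, miR-532-5p, had an unadjusted p under 0.05. Of 159 tested miRNAs, 51 (32.1%) were called higher and 42 lower, and 104 had an unadjusted p under 0.05. Quantile values follow the rank on each array. On KO replicates 1 and 2, 254 and 238 probes were brighter than that of miR-532-5p, whereas 215 were brighter on WT replicate 2 and fewer still on WT replicate 1. For miR-362-3p the numbers were 209 and 187 in KO and 183 and 175 in WT, and for miR-362-5p they were 252 and 231 in KO and 211 and 256 in WT. For miR-532-5p and miR-362-3p the signal was thus lower in WT and the rank was higher, in each case without overlap.

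The shorter probes did not follow the longest ones under the quantile method. The 19-base probe of miR-362-3p gave 0.14 where the 20-base probe gave -0.30, the 17-base probe of miR-362-5p gave 0.15 where the 18-base probe gave -0.13, and the 16-base probe of miR-532-5p gave 0.50 where the 17-base probe gave -0.56. These shorter probes varied widely between the WT arrays, with quantile-normalized log2 values of 4.50 and 3.24 on WT replicates 1 and 2 for the 19-base probe of miR-362-3p. With the scaling to the 75th percentile, the same 3 shorter probes gave 0.76, 0.74 and 0.34, for miR-362-3p, miR-362-5p and miR-532-5p. The 17-base probe of miR-362-5p and the 16-base probe of miR-532-5p had no spot well above background on any array, and the 19-base probe of miR-362-3p had 1 and 2 such spots on WT replicates 1 and 2, so these values are differences of signals at or near background. Probes of 1 miRNA share their target strand and sequence and are not replicates of it.

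Background treatment and the summary over probes also moved the values. With the normexp background model and an offset of 50 units, which exceeds the processed signal of all 3 miRNAs on all 4 arrays, the differences shrank to 0.029 ± 0.071, 0.085 ± 0.073 and -0.039 ± 0.072 for miR-362-5p, miR-362-3p and miR-532-5p. None of the 3 was called by limma (0 of 3 at an unadjusted p under 0.05). Of 160 tested miRNAs, 67 (41.9%) were called higher and 26 lower, and 96 had an unadjusted p under 0.05. With the summed signal per miRNA that the scanner software gives, the difference was 1.13 ± 0.14 for miR-362-5p (limma, adjusted p = 0.010). It was 0.29 ± 0.099 for miR-362-3p and 0.016 ± 0.095 for miR-532-5p. Of these, 1 of 3 was called higher, beside 27% of all tested called higher. With the mean over all probes of each miRNA, the difference was 0.35 for miR-362-5p, 0.62 for miR-362-3p and 0.31 for miR-532-5p, so the order of the 3 changed with the summary over probes and with normexp. For miR-362-5p that mean counts the 15- and 16-base probes, which were set to log2 0 on all 4 arrays and so gave a difference of 0.

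**Figure D4:**
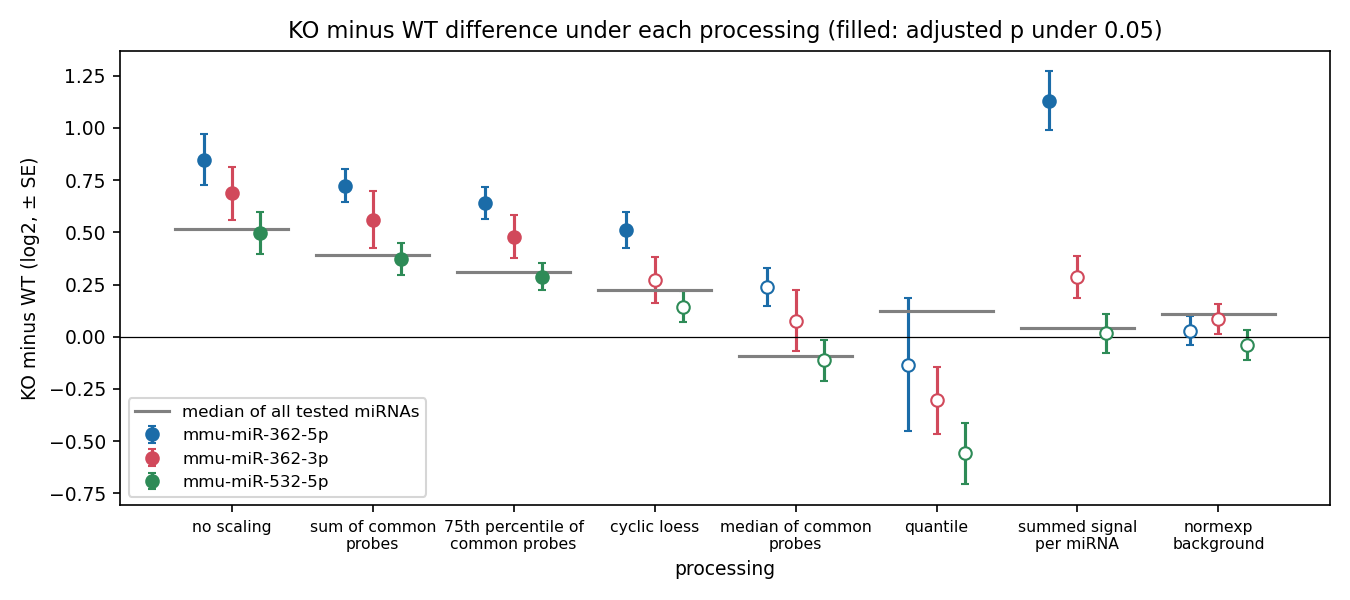
KO minus WT difference (log2, ± SE, 2 KO and 2 WT arrays) of the 3 miRNAs under 8 ways of processing, with filled symbols where the limma adjusted p was under 0.05 and grey bars at the median of all tested miRNAs. The differences were 0.85, 0.69 and 0.50 without scaling and -0.13, -0.30 and -0.56 with quantile normalization, and miR-362-5p reached 1.13 with the summed signal per miRNA.

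Differences between members within an array do not depend on a single-number scaling. The log2 signal of miR-362-5p minus that of miR-532-5p was 0.35 higher in KO than in WT, with 0.016 and 0.057 on the KO arrays and -0.29 and -0.34 on the WT arrays. The 2 groups did not overlap, and the pooled SD within groups was 0.033, from 2 arrays per group. The technical SE from spots of the KO minus WT difference was above this SD for each miRNA. It was 0.11 for miR-362-5p, 0.075 for miR-362-3p and 0.083 for miR-532-5p. No technical SE was computed for the gaps between members, nor the share of other miRNA pairs whose gap separates the groups. The separation of the groups is therefore a description only. The log2 signal of miR-362-5p minus miR-362-3p, the 2 strands of 1 hairpin, was 0.16 higher in KO, at -0.61 and -0.69 on the KO arrays and -0.72 and -0.90 on the WT arrays, with a pooled SD of 0.10. The log2 signal of miR-362-3p minus miR-532-5p was 0.19 higher in KO, with a pooled SD of 0.090, and its groups overlapped with loess. These gaps depended on other choices. The strand gap of miR-362 turned to -0.056 with normexp and to -0.27 with the mean over all probes of each miRNA, and was 0.84 with the summed signal. The mean over all probes lowers the difference of miR-362-5p by construction, through its 15- and 16-base probes at log2 0. The gap between miR-362-5p and miR-532-5p was 0.068 with normexp, 0.032 with overlapping groups with the mean over all probes, and 1.11 with the summed signal. Because probes differ in their response, these values compare KO with WT and say nothing of which strand was the more abundant. Since the arrays held RNA of whole cultures, fewer cells with a miRNA and less of it per cell cannot be told apart.

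Culture age was not used in the choice of the 3 miRNAs. From the lower to the higher PDL, the log2 signal changed by 0.015 ± 0.096 for miR-362-5p (adjusted p = 0.95), by 0.15 ± 0.079 for miR-362-3p (adjusted p = 0.83) and by 0.021 ± 0.079 for miR-532-5p (adjusted p = 0.94), with genotype in the limma model. None passed the test. These values are means over the genotypes. In KO and WT, the change was 0.11 and -0.084 for miR-362-5p, 0.20 and 0.095 for miR-362-3p, and 0.073 and -0.032 for miR-532-5p. Among all 159 tested miRNAs 0% were called by limma, and 8 had an unadjusted p under 0.05. The higher PDL was 96 in KO and 90 in WT, and the design left 1 residual degree of freedom per miRNA. The lack of calls therefore does not show that culture age had no effect.

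Of 14 listed names for the other miRNAs of the cluster, the array held 6, of which 2 could be tested. The remaining 4, miR-188-3p, miR-501-5p, miR-501-3p and miR-532-3p, were well above background on no array, so only the 5p strand of the miR-532 hairpin was measured. The 3p strand, miR-532-3p, gave log2 signals of 1.93 to 2.51, below the limit on every array. The array's miR-500, the 3p strand of the neighbouring hairpin, passed the flag on all 4 arrays. Its log2 signal was 5.76 and 5.79 on the KO arrays and 4.99 and 5.15 on the WT arrays. Both KO arrays were above both WT arrays, and the scaled spots overlapped slightly (lowest KO spot 40.6, highest WT spot 42.3 units). Counted from the 5′ end, the longest probes of miR-500 and miR-362-3p had the same base at 13 of 16 places. Whether either strand also bound the probe of the other was not tested. miR-500 rose by 0.71 ± 0.083 in KO (limma, adjusted p = 0.0084), or 1.63-fold, and the difference was 0.92 without scaling, 0.31 with the median (adjusted p = 0.16) and 0.0049 with quantile normalization (adjusted p = 0.97).

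miR-188-5p comes from the hairpin between those of miR-532 and miR-362 and was read by probes of 10 to 13 bases. The 11-base probe was the brightest and is given here, and in both genotypes miR-188-5p was lower on replicate 2. Its log2 signal was 6.75 and 5.32 on KO replicates 1 and 2 and 4.41 and 3.91 on WT replicates 1 and 2, the last not well above background. Replicate 2 minus replicate 1, the higher minus the lower PDL, was -1.43 in KO and -0.50 in WT. With genotype in the limma model, the change with PDL was -0.97 ± 0.31 (SE, adjusted p = 0.83). The 3 other probes of this miRNA were also lower on KO replicate 2. The difference of 1.87 ± 0.59 was not called (limma, adjusted p = 0.069), and leaving out KO replicate 1 took it to 1.15, leaving out KO replicate 2 to 2.59. Without scaling the adjusted p was 0.046, with normexp 0.049 and with PDL as a block 0.043.

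The miRNAs outside the cluster whose 4 centred log2 signals lay nearest to the mean profile of the 3 members were miR-130a, miR-19a and miR-18a, at Euclidean distances of 0.12, 0.12 and 0.13 among 112 compared over 4 arrays (median distance 0.52). miR-19a and miR-18a belong to the miR-17-92 cluster. The log2 signal of miR-130a was 10.07 and 10.05 on the KO arrays and 9.66 and 9.62 on the WT arrays, and its difference was 0.42 (limma, adjusted p = 0.012). miR-19a differed by 0.40 (adjusted p = 0.017) and miR-18a by 0.38 (adjusted p = 0.013). Because these miRNAs were picked for closeness to a profile that is high in KO, their differences and p-values follow from that choice. They are given as a description only. These 3 miRNAs were far brighter than the detection limit and had their probes on chromosomes 2 and 14, not on the X chromosome.

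Of 9 further tested miRNAs with probes on the X chromosome, 5 were called higher in KO, 2 were called lower and 2 were not called, beside 43.4% called higher and 14.5% called lower among all tested miRNAs. Their median difference was 0.41, beside 0.31 for all tested miRNAs, and their differences ran from -1.001 to 0.86.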

How the data were processed

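Total RNA of 4 MEF cultures was hybridised to Agilent 1-colour miRNA arrays. The genotype and title fields of the labels name Lats2, while the source field writes LAT2, and Lats2 was used. The authors extracted the images with Agilent Feature Extraction 10.5.1.1, and the deposited intensity is linear, background-subtracted and detrended, not normalized between arrays, and negative below background. The deposited flags and other columns mark spots well above background, outliers and detected miRNAs. The series matrix held the same intensity within 0.495%.

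Control and outlier spots were left out, spots averaged per probe, and arrays scaled to the 75th percentile of 192 common probes (531, 562, 488 and 458 units for KO and WT replicates 1 and 2). Values under 1 unit were set to 1 before log2. A probe was well above background where a share over 0.5 of its spots passed. The brightest probe represented a miRNA. limma 3.58.1 (R 4.3.3; lmFit, eBayes, two-sided) was run on all 159 tested miRNAs with Benjamini-Hochberg adjustment, called under 0.05, and was tested on simulated data. The p-values rest on 4 arrays from 1 clone per genotype, and separate cultures per array are not stated beyond PDL. The members, lists and tests were chosen with earlier results of these data known. Named are the members, the listed cluster miRNAs and the 3 nearest profiles. Other scalings, background models, filters, summaries, a PDL block, single arrays left out and the methods' t-test were alternatives. Sequences and gene neighbourhood come from RefSeq (GRCm38.p6), and probe positions from the files (mm9).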

Additional observations from a re-analysis of the deposited data

Results flagged for a closer look

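From the lower to the higher PDL, the log2 signal of miR-362-5p changed by 0.11 in KO and by -0.084 in WT, so the change in KO exceeded that in WT by 0.20. For miR-532-5p the changes were 0.073 in KO and -0.032 in WT, a gap of 0.11. Both were singled out because the KO and WT clones moved in opposite directions with culture age, with 1 array per genotype and age, and the difference was not tested. From the spots alone, the log2 signal of miR-362-5p had SEs of 0.049 and 0.061 on KO replicates 1 and 2. Those on WT replicates 1 and 2 were 0.077 and 0.18. For miR-532-5p the SEs were 0.069, 0.058, 0.062 and 0.13 in the same order. The errors of both arrays of a group enter each change, and no change was tested against them.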

How the results depend on the processing

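Of 20 alternatives, 15 kept the number of miRNAs called between KO and WT within 1.5 times of 92. The count was 60 with no filter on dim miRNAs, 39 with the methods' t-test (33 after Benjamini-Hochberg adjustment), and 37 to 89 with 1 array left out (39 without KO replicate 1, 37 without KO replicate 2). For miR-362-5p, which the filter on all 4 arrays left out, 11 of 19 alternatives kept direction and call. Its log2 difference was -0.13 with quantile normalization and, no longer called, 0.24 with the median, 0.029 with normexp, and 0.64 without a filter and in both versions of the methods' t-test, where it missed the fold threshold of 2. With 1 array left out it was 0.58 to 0.70. For miR-362-3p, 8 of 20 kept both. It was -0.30 with quantile normalization and, not called, 0.076 with the median, 0.27 with loess, 0.085 with normexp, 0.29 with the summed signal, 0.48 without a filter and in the methods' t-test, and 0.38 to 0.58 with 1 array left out. For miR-532-5p, 5 of 20 kept both. It was -0.11 with the median, -0.56 with quantile normalization and -0.039 with normexp. It was not called at 0.14 with loess, 0.016 with the summed signal, 0.31 with the mean over its probes, 0.29 without a filter, with the PDL block and in the methods' t-test, 0.25 to 0.33 with 1 array left out, and 0.28 after subtracting each array's median over all probes (-1.95, -1.92, -2.82 and -0.35 units), an alternative chosen after seeing the data. The KO minus WT difference of the strand gap of miR-362, 0.16, was 0.84 with the summed signal, -0.056 with normexp and -0.27 with the mean over probes. The PDL comparison gave 0 calls by limma under all 13 alternatives run, with 4 to 25 miRNAs at an unadjusted p under 0.05. Adjusted p-values over the limma alternatives ran from 0.0086 to 0.76, 0.019 to 0.68 and 0.025 to 0.88 for miR-362-5p, miR-362-3p and miR-532-5p. Apart from what fewer arrays, more miRNAs tested, a changed zero or averaging over probes at log2 0 give by construction, the cause was not tested. Scaling to the 75th percentile over all probes gave no value, since it was -0.10 units on WT replicate 1, and a slide or scan block was not run with 1 slide and 1 scan. The PDL block sets the lower-PDL arrays of both genotypes against each other, and likewise the higher. The signal of all 3 miRNAs near background, 2 arrays per group and 1 clone per genotype limit these values.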
